A study of Homo sapiens with 4 samples.

Results

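The genes described here are 10 parts and targets of the NF-kB pathway, measured in populations of the human glioblastoma line U87MG that did or did not invade brain tissue. They were chosen by gene symbol, with earlier results of these data known. All 10 were found among the 29387 genes listed in all 4 raw count files. They are the subunit genes NFKB1, NFKB2, RELA and RELB, the feedback inhibitors NFKBIA and TNFAIP3, and the targets BIRC3, TNFAIP2, ICAM1 and SOD2. U87MG is an established cell line. Parental cells spent 1 week on organotypic brain slices (sections of brain maintained alive in a dish), in a medium for neural stem cells that contained the growth factors FGF and EGF. Highly invasive populations (invasive 1 and invasive 2) and poorly invasive populations (control 1 and control 2) were then taken from those slices, grown on in culture for 3 to 5 days, and lysed for RNA. No population carries an engineered allele in the labels, and slices and medium were common to all 4. Control 1 is the control for invasive 1 (pair 1), and control 2 is the control for invasive 2 (pair 2). The sample titles call the invasive populations clones, while the design text calls them populations. Each population gave 1 mRNA library, so a difference within a pair has no replicate check.

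NF-kB is a family of transcription factors that act as dimers of the proteins encoded by NFKB1, NFKB2, RELA, RELB and REL. In resting cells the dimers are held in the cytoplasm by inhibitors such as the protein of NFKBIA, and signals from cytokine receptors lead to degradation of the inhibitor and entry of the dimers into the nucleus. NF-kB then switches on inflammatory and survival genes and also its own inhibitors, so that NFKBIA and TNFAIP3 close a negative feedback loop. In glioblastoma the pathway is known for its association with the mesenchymal state.

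NF-kB dimers bind a short DNA motif, the kappaB site, and several of the genes are textbook examples of genes with such sites near their start. RefSeq promoter windows (GRCh38.p14, 250 bases before to 50 after each annotated start) were available for 9 of the 10 genes, in 16 windows. The table had no entry for RELB. A match to the 10-base kappaB consensus on either strand lay in a window of 5 of the 9 genes, namely NFKB1, NFKB2, NFKBIA, TNFAIP3 and BIRC3. Over all 27305 genes with windows, 13.3% had such a match. The sequences below are shown because they hold these matches. They read 5′ to 3′ on the strand of the gene, with each match in capitals, and positions are counted from the annotated start. Where a stretch overlapped an annotated exon it was kept to at most 30 bases.
NFKB1, chr4:102501300-102501329, plus strand: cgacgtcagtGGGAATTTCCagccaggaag
NFKB2, chr10:102394462-102394490, plus strand: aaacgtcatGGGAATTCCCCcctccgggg
NFKB2, chr10:102394490-102394519, plus strand: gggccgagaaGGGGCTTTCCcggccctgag
NFKB2, chr10:102395489-102395578, plus strand: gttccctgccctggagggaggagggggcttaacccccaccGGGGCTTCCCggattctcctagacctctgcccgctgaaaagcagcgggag
NFKB2, chr10:102395674-102395703, plus strand: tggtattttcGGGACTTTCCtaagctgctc
NFKBIA, chr14:35404781-35404870, minus strand: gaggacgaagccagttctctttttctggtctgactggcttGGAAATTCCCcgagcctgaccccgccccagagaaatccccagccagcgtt
TNFAIP3, chr6:137867188-137867217, plus strand: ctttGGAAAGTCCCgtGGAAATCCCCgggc
BIRC3, chr11:102317245-102317398, plus strand: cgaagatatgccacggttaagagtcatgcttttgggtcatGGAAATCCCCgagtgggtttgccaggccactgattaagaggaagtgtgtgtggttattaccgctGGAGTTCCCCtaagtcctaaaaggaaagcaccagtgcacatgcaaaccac
ICAM1, chr19:10270924-10270952, plus strand: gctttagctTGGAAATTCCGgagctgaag

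The match of NFKBIA began at position −81 and that of NFKB1 at −49. TNFAIP3 had a pair of matches, at −67 and −55, and the matches of BIRC3 began at −199 and −135. The matches of NFKBIA, TNFAIP3 and BIRC3 were on the strand opposite to the gene, and that of NFKB1 was on the strand of the gene. NFKB2 had matches in 2 of its 3 windows. Upstream of one start there were overlapping matches at −107 and −106 and another at −78, and upstream of the other there were matches at −176 and −21. Those at −107 and −176 were on both strands, and that at −106 was on the opposite strand alone. The stretch of ICAM1 holds no match to the consensus. It is shown for 2 overlapping matches, at −187 and −186, to a looser motif, GG followed by any 3 bases and TTCC with any base before it, which was searched on both strands after the ICAM1 window was found to lack the consensus. That motif was in windows of 7 of the 9 genes and of 23.4% of all genes. With GGG followed by any 3 bases and TTCC, searched on both strands and partly overlapping the consensus, 5 of the 9 genes and 7.83% of all genes had a match. No window of RELA or SOD2 matched any of the 3 motifs, which says only that these letters were not in those windows.

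The 4 libraries were spread apart, and control 2 was not alone in this. Control 2 had 91 genes at 2 or more times the level of every other library, invasive 2 had 79, invasive 1 had 46 and control 1 had 15. On the first principal component, which held 47.3% of the variance (over 14231 genes), control 2 lay farthest from the mean, on the same side as control 1 and opposite to both invasive libraries. On the second, with 34.9%, control 1 and invasive 2 lay farther from the mean than control 2 did, and pair 1 was on one side and pair 2 on the other. Totals ran from 13829215 to 17817525 counts, and mitochondrial genes took 2.78% of counts in control 2 and 3.05% to 3.28% in the others. Markers of other brain cells were checked. P2RY12 of microglia, AQP4 of astrocytes, MOG of oligodendrocytes and CLDN5 of endothelium had 0 counts in every library. Other genes of the same lists were well counted. GJA1 of the astrocyte list had 2967 to 4807 counts, CNP of the oligodendrocyte list 1229 to 1906 and CSPG4 of the pericyte list 1074 to 2787. SNAP25 of the neuron list had 364 to 622 counts and CSF1R of the microglia list 140 to 379. Of the 7 microglia and leukocyte genes found, 4 had at most 3 counts in any library, and the summed level of all 7 ran from 10.7 to 21.8 counts per 1000000 counts of the library (CPM). The 7 astrocyte genes summed to 220.5 to 302.7 CPM, the 6 oligodendrocyte genes to 87.6 to 123.5, the 6 neuron genes to 52.7 to 62.5 and the 7 endothelial and pericyte genes to 113 to 197. Control 2 was not the highest library for any of these sums. GFAP, a defining gene of astrocytes and of many gliomas, had 2 to 4 counts.

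The main pattern was a high level in control 2. Of the 10 genes, 8 had their highest level in control 2, whereas 25.5% of the 14231 tested genes were highest there. RELA and TNFAIP2 were the 2 exceptions. In 6 of the 10, RELB, NFKBIA, TNFAIP3, BIRC3, ICAM1 and SOD2, the level in control 2 was at least 1.5 times that in each other library, against 1.79% of tested genes. Control 1 had the lowest level for 7 of the 10, against 25.4% of tested genes. Levels are given in CPM, which compares 1 gene across libraries but not genes with each other. In bulk RNA, more cells expressing a gene and more RNA per cell cannot be told apart.

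**Figure D1:**
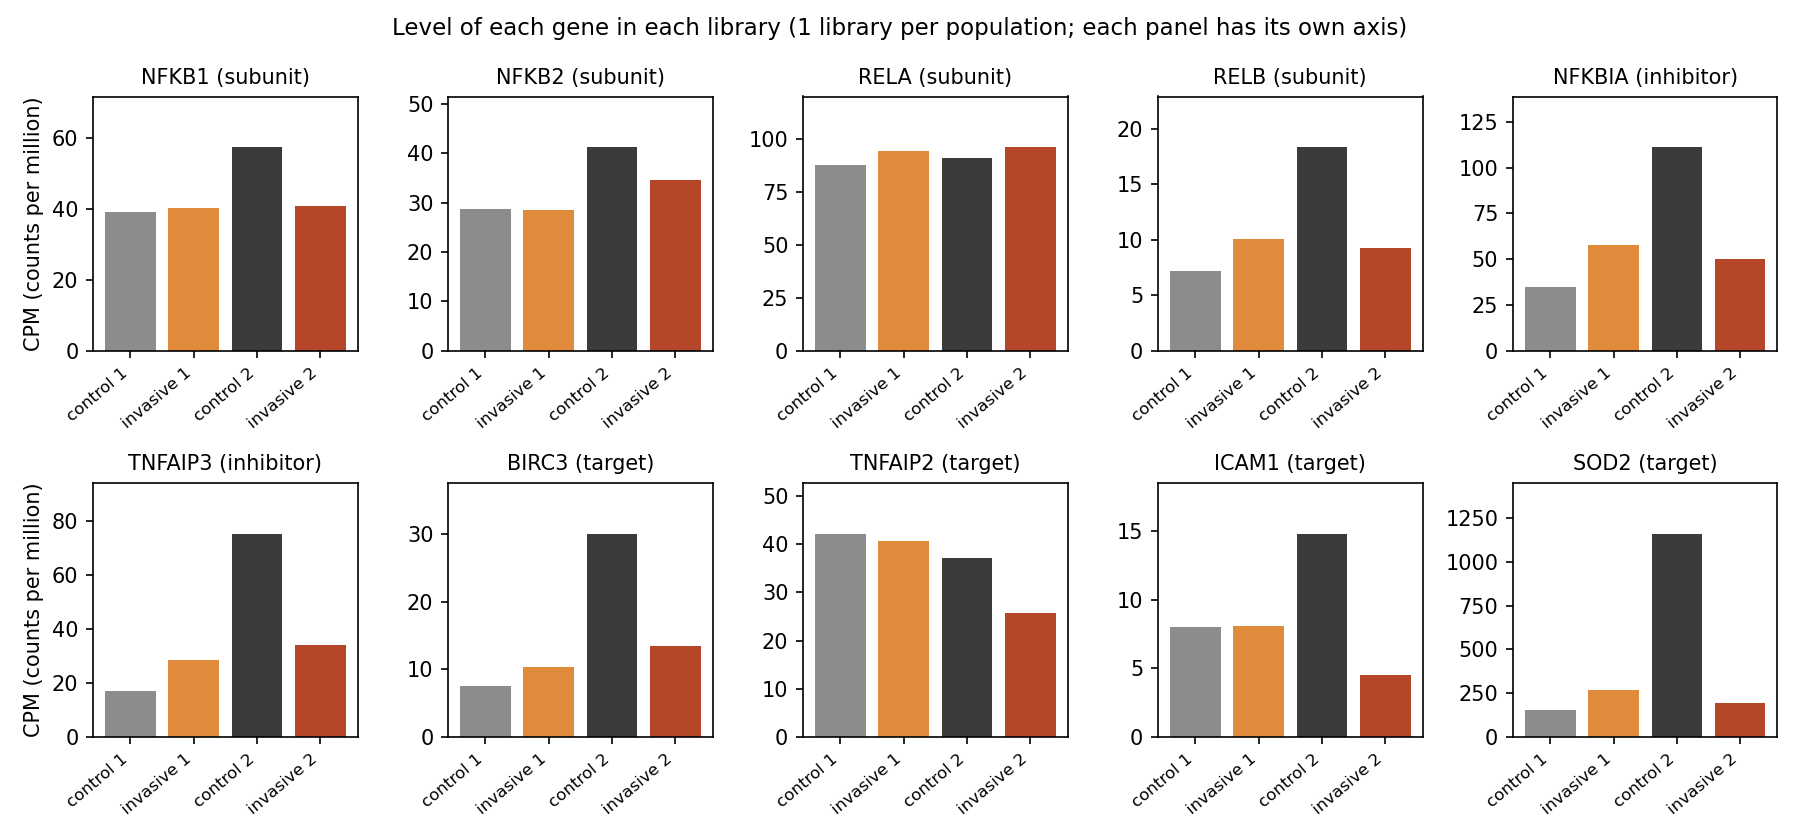
Bars give the CPM of each gene in control 1, invasive 1, control 2 and invasive 2, with 1 library per bar, no error bars and a separate axis starting at 0 in each panel. SOD2 stands at 1161 CPM in control 2 and at 155 to 269 CPM in the other libraries, while RELA lies between 87.95 and 96.25 CPM in all 4.

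Among the subunits, RELA was even across libraries and RELB was the most variable. RELA (ENSG00000173039, chromosome 11, 65653596 to 65663094) encodes p65, the subunit that activates transcription in the classical pathway. Its level was 87.95 CPM in control 1 and 94.4 in invasive 1, then 91.2 in control 2 and 96.25 in invasive 2. Both invasive libraries were above both controls, by a small margin, as they were for 23.7% of tested genes. No other member had groups that did not overlap, and 0 of the 10 had both invasive libraries below both controls (19.7% of tested genes).

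NFKB1 (ENSG00000109320, chromosome 4, 102501329 to 102617302) encodes p105, the precursor of p50, the usual partner of p65. It had 39.1 CPM in control 1 and 40.3 in invasive 1, then 57.4 in control 2 and 40.9 in invasive 2. Control 2 was above the other 3 libraries, which were close to each other. NFKB2 (ENSG00000077150, chromosome 10, 102394110 to 102402529) encodes p100, the precursor of p52 in the alternative pathway. Its levels were 28.8 CPM (control 1), 28.45 (invasive 1), 41.25 (control 2) and 34.7 (invasive 2). Here both libraries of pair 2 were above both of pair 1.

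RELB (ENSG00000104856, chromosome 19, 45001430 to 45038194) encodes the partner of p52. It had 7.13 CPM in control 1 and 10.1 in invasive 1, then 18.3 in control 2 and 9.26 in invasive 2. The 2 invasive libraries lay between the 2 controls. Counts of RELB were low, from 127 to 283.

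The feedback inhibitors showed the same order of controls with larger gaps. NFKBIA (ENSG00000100906, chromosome 14, 35401511 to 35404749) encodes IkB-alpha, which holds dimers in the cytoplasm. Its level was 35.0 CPM in control 1 and 58.0 in invasive 1, then 111 in control 2 and 50.04 in invasive 2. The controls were the lowest and the highest library, and the invasive libraries were close to each other between them. The control mean was 73.1 ± 53.9 CPM and the invasive mean 54.0 ± 5.63 CPM (SD, n = 2 each).

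TNFAIP3 (ENSG00000118503, chromosome 6, 137867188 to 137883312) encodes A20, an enzyme that edits ubiquitin chains and shuts off signalling from cytokine receptors. It had 16.95 CPM in control 1 and 28.6 in invasive 1, then 75.4 in control 2 and 34.0 in invasive 2. Control 2 was 4.45 times control 1, while invasive 2 was 1.19 times invasive 1. An antisense gene overlapping its exons, AL357060.1, had 11 to 22 counts against 302 to 1164 for TNFAIP3.

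The targets were of 2 kinds, with BIRC3, ICAM1 and SOD2 high in control 2 and TNFAIP2 not. SOD2 (ENSG00000112096, chromosome 6, 159669057 to 159762529) encodes the mitochondrial manganese superoxide dismutase, which detoxifies superoxide. It had 155 CPM in control 1 and 269 in invasive 1, then 1161 in control 2 and 195.5 in invasive 2. Control 2 was 7.49 times control 1, the widest gap between controls among the 10 genes. The control mean was 658 ± 711 CPM and the invasive mean 232 ± 52.0 CPM (SD, n = 2 each), so the controls differed from each other by more than the groups did. WTAP, on the opposite strand, shares 298 exon bases with SOD2 (1.81% of its exon length) and had 51.1, 57.9, 116 and 52.6 CPM in the same order. It was also highest in control 2. The libraries were strand-specific, but no source used here says whether reads were counted by strand, so the 2 genes may share reads. In control 2, SOD2 had 17923 counts and WTAP had 1795, and the part of this overlap in the result was not tested.

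BIRC3 (ENSG00000023445, chromosome 11, 102317450 to 102339403) encodes cIAP2, a ubiquitin ligase that blocks cell death and acts in the pathway itself. It had 7.465 CPM in control 1 and 10.3 in invasive 1, then 30.1 in control 2 and 13.5 in invasive 2. Control 2 was 4.03 times control 1. ICAM1 (ENSG00000090339, chromosome 19, 10270835 to 10286615) encodes an adhesion molecule bound by leukocyte integrins. It had 8.03 CPM in control 1 and 8.08 in invasive 1, then 14.8 in control 2 and 4.48 in invasive 2. It was the member with the lowest counts, 62 to 229, and its lowest library was invasive 2, not control 1. Antisense annotations overlap 22% of its exon length but had at most 2 counts in any library.

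TNFAIP2 (ENSG00000185215, chromosome 14, 103123442 to 103137439) was named for its induction by tumour necrosis factor and is linked to membrane protrusions. It had 42.2 CPM in control 1 and 40.7 in invasive 1, then 37.0 in control 2 and 25.7 in invasive 2. Alone among the 10, it was highest in control 1, and invasive 2 was below the other 3 libraries.

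The study asked how invasive cells differ from poorly invasive ones, and within the 2 pairs the answer for these genes pointed in different directions. In pair 1, 3 of the 10 were at least 1.5-fold higher in the invasive library, NFKBIA, TNFAIP3 and SOD2, against 9.79% of tested genes, and none was 1.5-fold lower (3.44% of tested genes). In pair 2, 6 were at least 1.5-fold lower in the invasive library, RELB, NFKBIA, TNFAIP3, BIRC3, ICAM1 and SOD2, against 6.44% of tested genes. They are the same 6 genes whose level in control 2 was at least 1.5 times that in each other library. That criterion includes a 1.5-fold lower level in invasive 2, so this count restates the high level in control 2. None was 1.5-fold higher in pair 2 (11.7% of tested genes). At 2-fold, 0 of the 10 were higher in pair 1 (3.90% of tested genes) and 0 lower (1.24%). In pair 2, 5 were 2-fold lower, against 2.35% of tested genes, and 0 higher (4.98%). NFKBIA, TNFAIP3 and SOD2 were past 1.5-fold in opposite directions, as were 0.808% of tested genes.

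NFKBIA was 1.66-fold higher in invasive 1 than in control 1 (95% counting interval 1.496 to 1.84) and 2.22-fold lower in invasive 2 than in control 2 (2.03 to 2.43). These intervals are exact binomial ones and cover counting error only, not the spread between cultures. TNFAIP3 was 1.69-fold higher in pair 1 (1.45 to 1.96) and 2.22-fold lower in pair 2 (1.99 to 2.47). SOD2 was 1.74-fold higher in pair 1 (1.65 to 1.82) and 5.94-fold lower in pair 2 (5.70 to 6.18). The same reversal, of smaller size in pair 1, appeared in BIRC3 and RELB. BIRC3 was 1.39-fold higher in pair 1 (1.09 to 1.76) and 2.23-fold lower in pair 2 (1.88 to 2.65). RELB was 1.42-fold higher in pair 1 (1.11 to 1.803) and 1.98-fold lower in pair 2 (1.60 to 2.46).

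The other 5 genes had no difference beyond counting error in pair 1. ICAM1 had a ratio of 1.01 in pair 1 (0.786 to 1.29) and was 3.31-fold lower in pair 2 (2.49 to 4.45). NFKB1, TNFAIP2 and NFKB2 were lower in pair 2 by smaller factors of 1.41, 1.44 and 1.19, each with a counting interval above 1. RELA had ratios of 1.07 (0.999 to 1.153) and 1.06 (0.978 to 1.14). The difference between the pairs could not be tested, because a model with a separate effect in each pair leaves no residual degree of freedom.

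**Figure D2:**
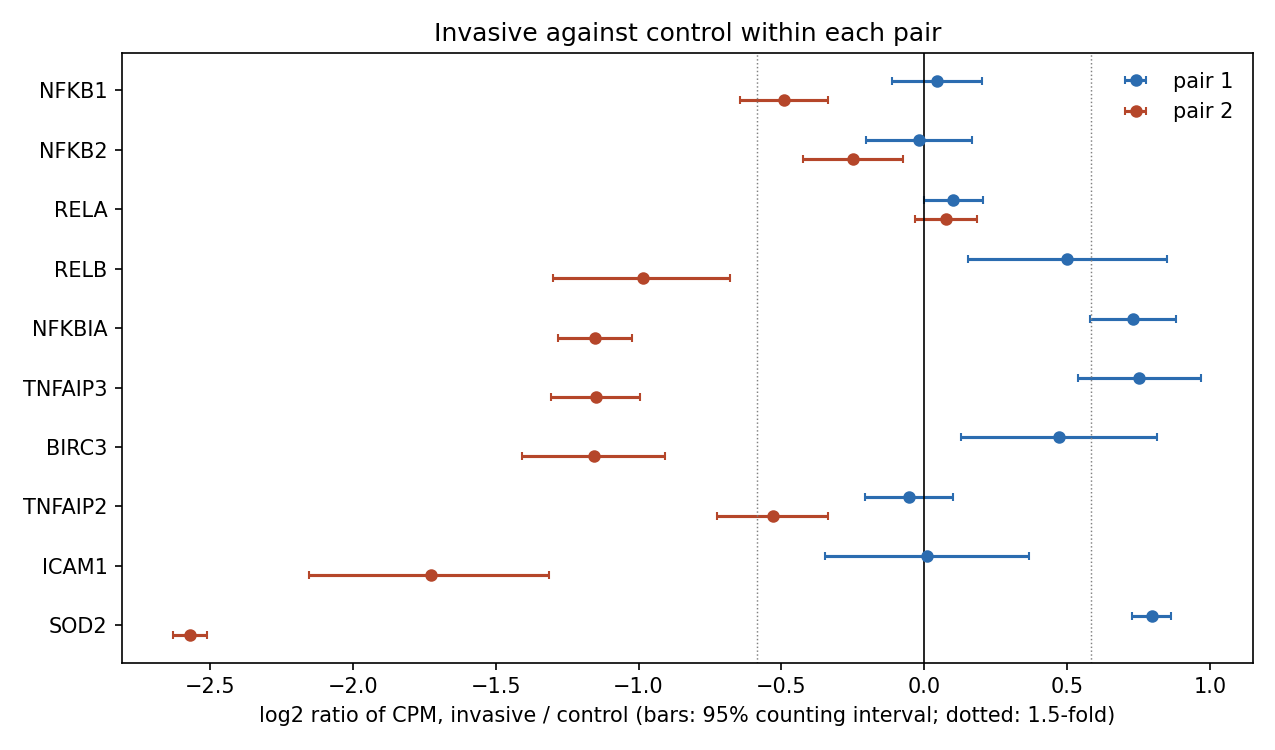
Points give the log2 ratio of CPM, invasive over control, in pair 1 (blue) and pair 2 (red), bars the 95% counting interval, and dotted lines 1.5-fold in either direction. RELB, NFKBIA, TNFAIP3, BIRC3 and SOD2 lie right of 0 in pair 1 and left of 0 in pair 2, and RELA lies near 0 in both.

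The pairs differed mainly through their controls. Control 2 and control 1 were at least 2-fold apart in 5 of the 10 genes, RELB, NFKBIA, TNFAIP3, BIRC3 and SOD2, against 5.61% of tested genes. Invasive 2 and invasive 1 were that far apart in 0 of the 10, against 4.35% of tested genes. The ratio of control 2 to control 1 ran from 0.878 for TNFAIP2 to 7.49 for SOD2, and that of invasive 2 to invasive 1 from 0.555 for ICAM1 to 1.31 for BIRC3.

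None of the 10 genes passed the test of invasive against control over both pairs (edgeR's quasi-likelihood test, blocked by pair, with Benjamini-Hochberg adjustment over 14231 genes). That test called 0.274% of tested genes, 0.239% higher and 0.0351% lower. Adjusted p-values of the 10 ran from 0.312 for TNFAIP2 to 0.898 for NFKBIA. At an unadjusted p under 0.05, 0 of the 10 passed, against 18.2% of tested genes. DESeq2 with the same block called 0 of the 10 and 1.20% of tested genes. A gene that differs in opposite directions in the pairs has a large residual in this test, and the standard errors showed it. SOD2 had a log2 fold change of −0.91 ± 1.65 (SE), NFKBIA −0.24 ± 0.70 and TNFAIP3 −0.26 ± 0.69. RELA had 0.07 ± 0.09 and NFKB2 −0.15 ± 0.12. ICAM1 had −0.85 ± 0.46, NFKB1 −0.24 ± 0.15, RELB −0.28 ± 0.39, BIRC3 −0.42 ± 0.47 and TNFAIP2 −0.30 ± 0.14. Fold changes were below 0 for 9 of the 10, against 49.2% of tested genes.

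The sign of most fold changes rested on control 2. Without it, in a fit with no block, 8 of the 10 had fold changes above 0. The share of all genes above 0 in that fit was not computed. In pair 1, 7871 of the 14231 tested genes had log2 differences above 0. Among the 8 were TNFAIP3 (0.85 ± 0.24), BIRC3 (0.64 ± 0.31), NFKBIA (0.59 ± 0.21) and SOD2 (0.55 ± 0.23). None passed, with adjusted p-values of 0.463, 0.742, 0.593 and 0.675, in a fit that called 0.0270% of its genes. TNFAIP2 and ICAM1 had fold changes of −0.38 ± 0.27 and −0.38 ± 0.38. Without control 1, so that control 2 was the only control, SOD2 fell by 2.33 on the log2 scale (adjusted p = 0.00148), BIRC3 by 1.34 (0.0370), TNFAIP3 by 1.28 (0.0168) and NFKBIA by 1.05 (0.0278). That fit called 83 higher and 87 lower genes (1.14% of its genes), and it assumes that the lone control varies as the invasive libraries do. When genes were not filtered by count, ICAM1 passed (log2 fold change −0.87 ± 0.23, adjusted p = 0.00744), in a fit that called 760 higher and 693 lower genes of 25577 (5.68%).

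**Figure D3:**
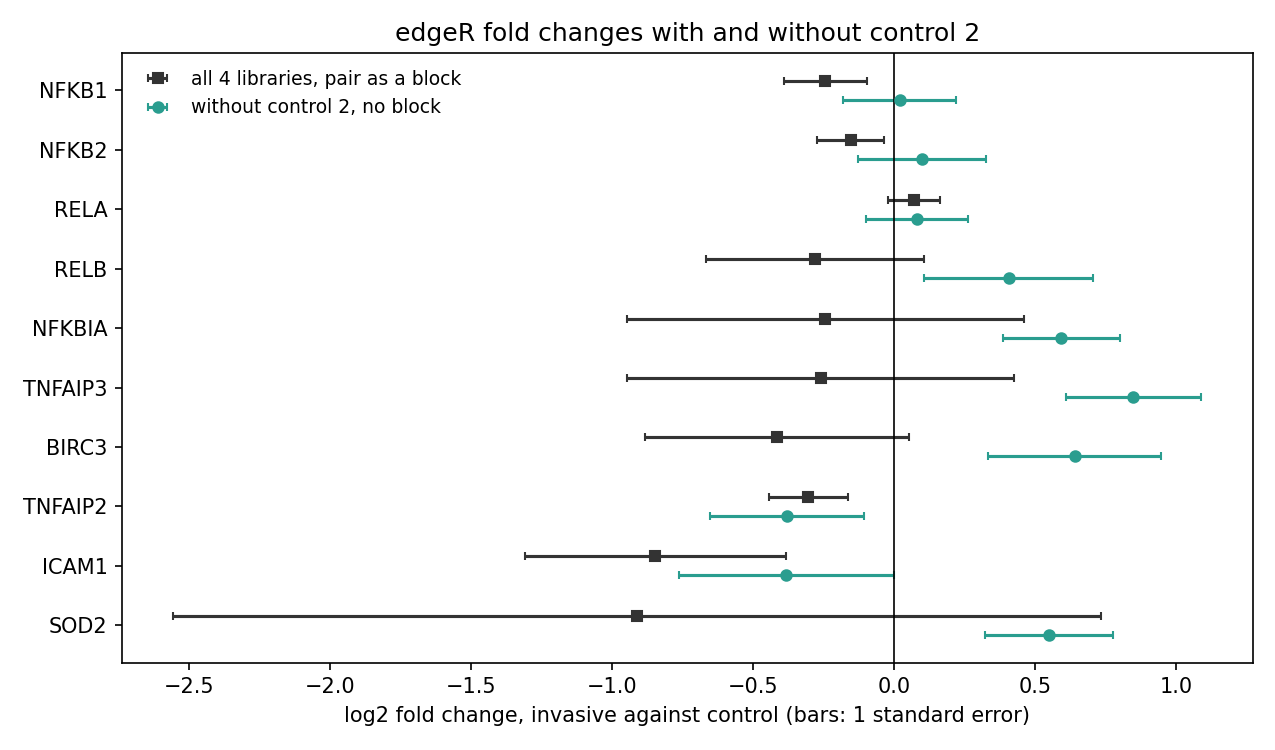
Points give the edgeR log2 fold change of invasive against control and bars 1 standard error, for all 4 libraries in the blocked fit (black) and without control 2 and without the block (green). Of the 10 genes, 9 lie below 0 with all libraries and 2, TNFAIP2 and ICAM1, without control 2.

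Levels of different genes were compared per length, as reads per kb of annotated exon per 1000000 counts (RPKM). In control 1 the order began with RELA (16.1 RPKM), NFKBIA (14.7), SOD2 (9.40) and TNFAIP2 (8.39). In control 2 it began with SOD2 (70.4), NFKBIA (46.8), RELA (16.7) and TNFAIP3 (14.9). NFKBIA was below RELA in control 1 and above it in invasive 1 (24.4 against 17.3), in control 2 and in invasive 2 (21.1 against 17.6). Among subunits RELA was the highest in every library, NFKB1 and NFKB2 were close to each other (6.24 and 6.42 RPKM in control 1), and RELB was the lowest (2.35 to 6.04 RPKM). BIRC3 had the lowest level per length in both libraries of pair 1 (0.993 and 1.38 RPKM). The level of SOD2 per length is uncertain. Its length, 16493 bases of exon, came from the GENCODE 29 model of the gene, which ends at 159745186, whereas the gene counted by the authors ends at 159762529. A second GENCODE 29 gene also named SOD2, on the same strand, shares 845 of those bases.

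**Figure D4:**
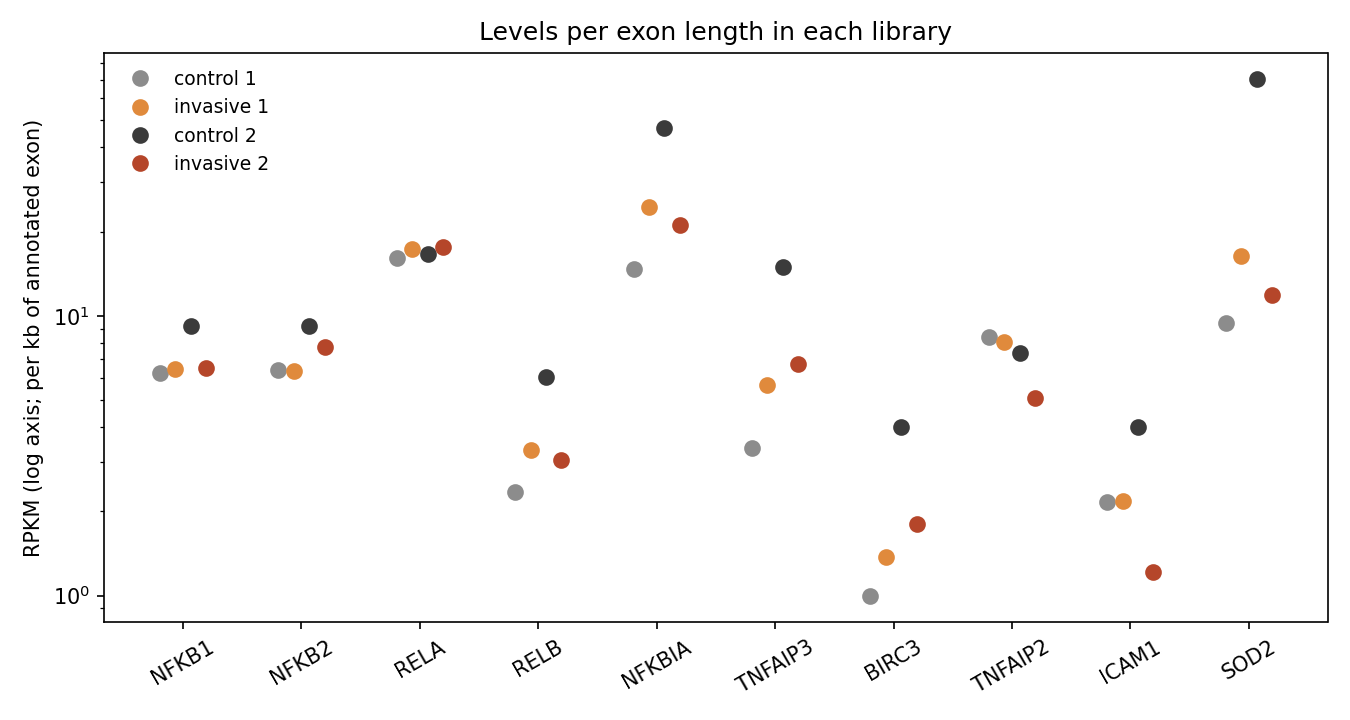
Points give the level of each gene in RPKM on a log axis in control 1, invasive 1, control 2 and invasive 2, with 1 library per point and no error bars. The 4 points of RELA lie together at 16.1 to 17.6 RPKM, and those of SOD2 spread from 9.40 to 70.4 RPKM with control 2 at the top.

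The rest of the pathway was read from 4 lists of 89 genes, of which 77 could be tested. None of the 77 passed the adjusted threshold in the edgeR test (0.274% of tested genes did), and DESeq2 with the block called 0 (1.20% of tested genes). At an unadjusted p under 0.05, 2 of the 77 passed (2.60%), a smaller share than the 18.2% of all tested genes. Without control 1, 15 of the 79 list genes in that fit were called, all lower in the invasive libraries (19.0%, against 1.14% of all genes in the fit). Of these, 11 were other targets, 3 were other subunits and inhibitors and 1 was a kinase. Without control 2, 0 of 77 were called. With no filter on counts, 1 was called higher and 4 lower of 86 (5.81%, against 5.68% of all genes in that fit), all of them other targets. The lists differed in how far they followed the 10 genes. Across all tested genes, log2 differences had a median of 0.036 in pair 1 and 0.012 in pair 2. Across the 10 genes the medians were 0.28 and −1.06.

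The list of other targets had medians on the same side of 0 as those of the 10 genes in each pair. Its 25 tested genes had median log2 differences of 0.29 in pair 1 and −0.52 in pair 2. In pair 1, 5 were at least 1.5-fold higher and 0 lower, against 9.79% and 3.44% of tested genes. In pair 2, 1 was higher and 12 were lower, against 11.7% and 6.44% of tested genes. In 12 the level in control 2 was at least 1.5 times that in each other library, against 1.79% of tested genes. A gene that meets this criterion is also 1.5-fold lower in pair 2, so both counts are of the same 12 genes. CSF3, a granulocyte growth factor, had 25.8 CPM (control 1), 21.1 (invasive 1), 906.7 (control 2) and 12.7 (invasive 2). It was lower in the invasive library of both pairs, 1.22-fold in pair 1 (1.06 to 1.41) and 71.2-fold in pair 2 (61.4 to 83.1). The complement gene C3 had 37.0 CPM (control 1), 50.2 (invasive 1), 802 (control 2) and 56.7 (invasive 2). The matrix protease MMP3 had 153, 222, 3183 and 373 CPM in the same order. The chemokines CXCL1 and CXCL5 had under 1 CPM in both libraries of pair 1 and 9.58 and 15.3 CPM in control 2.

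Other subunits and inhibitors, 14 genes, had medians of 0.11 in pair 1 and −0.082 in pair 2, and 3 stood out. NFKBIZ, a nuclear co-regulator that NF-kB induces, had 13.6 CPM in control 1 and 20.5 in invasive 1, then 147.6 in control 2 and 18.4 in invasive 2. ZC3H12A, an RNase that degrades inflammatory mRNAs, had 13.9, 18.8, 105.5 and 15.5 CPM. TNIP1, a partner of A20, had 107, 112, 332 and 117 CPM. In all 3 the level in control 2 was over 2 times that of each other library. NFKBID had 3.25 to 5.83 CPM and BCL3 17.9 to 24.5 CPM, with no such step.

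The kinases and adaptors that carry the signal to NF-kB had medians near 0, with members that went both ways. Their 25 genes had medians of 0.035 in pair 1 and −0.037 in pair 2. In pair 1, 0 were past 1.5-fold, against 9.79% of tested genes higher and 3.44% lower. In pair 2, 1 was higher and 2 were lower, against 11.7% and 6.44% of tested genes. Of the 25, 12 (48%) were highest in control 2, against 25.5% of tested genes. The adaptor kinase IRAK2 had 29.9, 32.4, 66.2 and 24.9 CPM, and was 2.65-fold lower in invasive 2 than in control 2. MAP3K14, the NIK kinase of the alternative pathway, went the other way, with 20.9, 19.5, 11.1 and 23.7 CPM and was 2.14-fold higher in invasive 2 than in control 2. IKBKE was lowest in invasive 2 (15.8 CPM, against 24.2 to 25.8 in the others). RNF31 was 1.44-fold higher in pair 1 (1.17 to 1.78), and BIRC2, the neighbour and paralogue of BIRC3, had 120.5 to 173 CPM.

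Ligands and receptors, 13 tested genes, had medians of 0.083 in pair 1 and −0.075 in pair 2. IL1B, a cytokine that activates NF-kB and is also its target, had 15.9 CPM in control 1 and 12.1 in invasive 1, then 572 in control 2 and 29.6 in invasive 2. TNFRSF1B, a receptor of tumour necrosis factor, had 62.1, 46.5, 122 and 24.9 CPM. The interleukin-1 receptor IL1R1 was 1.79-fold higher in pair 1 (1.62 to 1.98) and 1.58-fold lower in pair 2 (1.45 to 1.72), as NFKBIA was. IL1A had its highest level, 9.54 CPM, in invasive 2. TLR3 had 5.13 to 9.39 CPM.

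**Figure D5:**
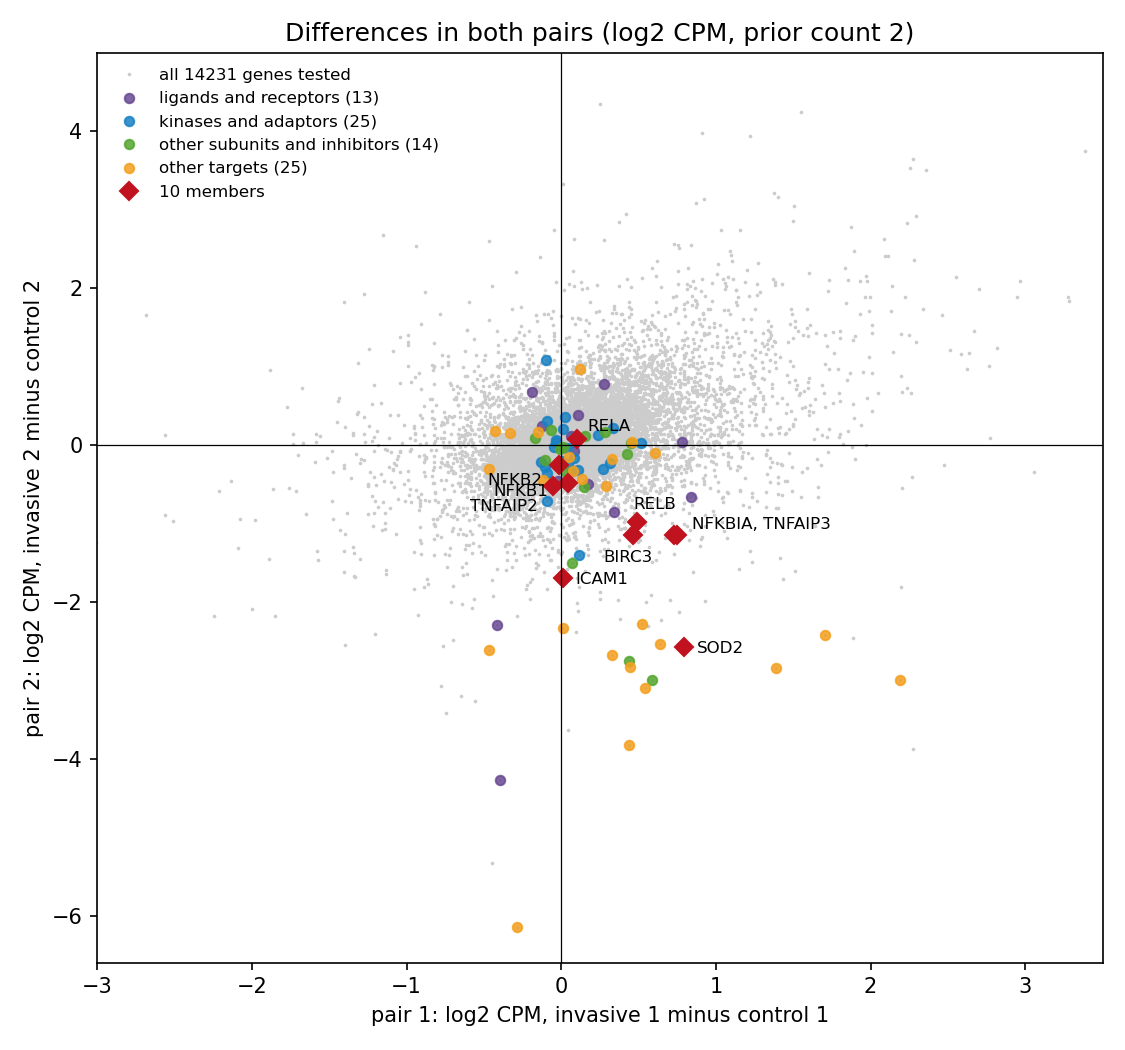
Each point is a gene, placed by its difference in log2 CPM (prior count 2) between invasive and control in pair 1 (horizontal) and pair 2 (vertical), for all 14231 tested genes (grey, 4 outside the axes), the 4 pathway lists (coloured) and the 10 genes (red diamonds). SOD2, NFKBIA, TNFAIP3, BIRC3 and RELB lie to the right of 0 and below 0, and many of the other targets lie below −2 in pair 2.

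The genes whose log2 CPM, centred over the 4 libraries, was nearest to that of NFKBIA (by the root mean square difference) were RP11-383J24.1 (0.073), LINC00944 (0.079), PPP4R4 (0.081), AKR1B1 (0.11) and RP11-379B18.5 (0.11). AKR1B1, aldose reductase, had 939.6 CPM in control 1 and 1281 in invasive 1, then 2508 in control 2 and 1200 in invasive 2. PPP4R4, a regulatory subunit of a protein phosphatase, had 4.10, 6.72, 14.4 and 6.65 CPM, and the 3 non-coding genes had 14 to 63 counts. Of the other 9 members, RELB was nearest to NFKBIA (0.12), followed by TNFAIP3 (0.24) and BIRC3 (0.25), and TNFAIP2 was farthest (0.68). Among tested genes, 5 were nearer to NFKBIA than RELB was, 38 than TNFAIP3, 50 than BIRC3, 3370 than SOD2 and 9657 than TNFAIP2. With 4 libraries such likeness describes these libraries only.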

How the data were processed

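Polyadenylated RNA was sequenced from strand-specific libraries, per the labels' protocols. Per the file headers, the authors deposited raw counts, whole numbers of reads for each Ensembl gene. They also deposited a second value for each gene, a score that the authors normalized (method not given in the sources used here) and rounded. The submitters' processing notes name TopHat2 2.0.12, HTSeq, Bowtie, DESeq2 and bcl2fastq 1.8.4, and the GRCh38 build, in no stated role. The score was used in 1 alternative only, as log2(value + 1).

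The count files of pair 1 listed 32100 genes each and those of pair 2 listed 33485 each. The 29387 genes in all 4 count files were joined, and every level was computed from these counts. Comparisons of control 2 with control 1 cross this difference between the files, and its part in them was not tested. A library with 0 counts of a gene allows up to 0.168 to 0.217 CPM (3 counts). A filter by group in edgeR (filterByExpr with a minimum count of 10 and a minimum total of 15) kept 14231 genes. They were tested with edgeR 4.0.16 (R 4.3.3) by the two-sided quasi-likelihood F test, blocked by pair, with TMM scaling and robust shrinkage. Adjusted p-values (Benjamini-Hochberg) were called under 0.05. Standard errors of the edgeR fold changes were derived from this test, as the absolute log2 fold change divided by the square root of F. The block leaves 1 residual degree of freedom beside a prior worth 5.45. All 10 genes passed the filter. The block follows the design text, which says that each control was analysed together with its invasive population. As a check, the difference of pair 2 from pair 1 correlated across genes between controls and invasive populations (r 0.283). The labels do not say whether populations of a group came from separate cultures, so p-values measure only the spread between these samples. Libraries of a group were not duplicates (chi-square per gene of 34.1 between controls and 21.3 between invasive populations). The test was checked on simulated data. With a log2 change of 1 it recovered 40 of 50 raised and 30 of 50 lowered genes, so it can miss such changes. With a log2 change of 2 it recovered 49 and 50 of 50. It called 8 of 13881 unchanged genes. Recovery was not tested separately for genes with large standard errors. In the blocked edgeR test of the real libraries, IL1B had a log2 fold change of −2.55 ± 1.92 (SE, adjusted p = 0.645). CSF3 had −3.25 ± 3.30 (adjusted p = 0.725), and neither gene was called.

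Within pairs, log2 differences of log2 CPM used a prior count of 2, and ratios carry exact (Clopper-Pearson) 95% counting intervals. Exon lengths and overlaps came from GENCODE 29 and promoters from RefSeq, both on GRCh38. The members, lists and tests were chosen with earlier results of these data known. Named genes were the 10 members, in each pathway list up to 5 genes with a mean of at least 1 CPM and the largest difference in either pair, beside any that passed, and the 5 genes nearest to NFKBIA. Alternatives were no block, other size factors, DESeq2 1.42.0, other filters, each library left out, other scalings within pairs and other motifs.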

Additional observations from a re-analysis of the deposited data

Results flagged for a closer look

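In 5 of the 10 genes the invasive population differed from its control in opposite directions in the 2 pairs, beyond counting error in each. The share of all tested genes that met this criterion was not computed. At any size of difference, 19.3% of tested genes were above 0 in pair 1 and below 0 in pair 2. The log2 difference in pair 1 minus that in pair 2 was 3.36 for SOD2, 1.9 for TNFAIP3, 1.88 for NFKBIA, 1.61 for BIRC3 and 1.47 for RELB. Each pair has 1 library per group, and the difference between the pairs was not tested.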

How the results depend on the processing

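No alternative within pairs (prior count 0.5, TMM-scaled CPM, the authors' normalized values) moved a log2 difference of the 10 genes beyond its counting interval, and the numbers of members past 1.5-fold kept within 1.5 times. The number of members with a promoter match was 5 with GGG, any 3 bases and TTCC or with the 250 bases before the start alone, and 7 with the first base free. Counts of genes called were less stable than the 34 higher and 5 lower reported by the blocked test. They were 2 and 0 with no replicate block, 80 and 9 with RLE size factors, 142 and 29 with DESeq2, and 760 and 693 with no filter, where 1 member passed. With no replicate block, as with the block, 0 members passed. Leaving out each library gave 4 to 83 higher genes, 0 to 87 lower genes and 0 to 4 members called. These fits have no block, since 1 pair is incomplete. Over them, fold changes turned sign for NFKB1 (−0.51 to 0.020), NFKB2 (−0.40 to 0.10), RELB (−0.93 to 0.41), NFKBIA (−1.05 to 0.59), TNFAIP3 (−1.28 to 0.85), BIRC3 (−1.34 to 0.64) and SOD2 (−2.33 to 0.55), each without control 2, and for TNFAIP2 (−0.65 to 0.012) without invasive 2. List medians ran from −0.071 to 0.029 for ligands and receptors, from −0.15 to 0.13 for other subunits and inhibitors and from −0.82 to 0.34 for other targets. The cause was not tested. With 62 to 229 counts, ICAM1 is the member whose precision depth limits most.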

Other observations

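Some pathway genes had too few counts to be tested, and their counts are given here after they were seen, in the order control 1, invasive 1, control 2 and invasive 2. TNF, the classical activating cytokine of NF-kB, had 1, 4, 2 and 2 counts, and its relative LTA had 0, 1, 0 and 0. VCAM1, an adhesion molecule that NF-kB induces in endothelium, had 0, 1, 0 and 0. The growth factor gene CSF2 had 2, 4, 63 and 6, the chemokine gene CCL20 had 5, 1, 22 and 0, and the survival gene BCL2A1 had 1, 1, 9 and 1. These last 3 genes had most of their counts in control 2.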
